A study of Mus musculus with 8 samples.

Results

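Peribronchial fibroblasts are the stromal cells that lie around the conducting airways. Here they were the 252 cells that the deposited annotation calls Fibroblasts_peribronchial, of 41106 cells in all and of 40074 cells once multiplets and cell cycle were left out. Lungs of 8 Sftpc-CreERT2-mTmG mice on a C57BL/6 background were dissociated and sequenced with 10x Genomics 3' chemistry, 1 library per mouse. Littermates aged 8 to 10 weeks all received tamoxifen, and then 4 breathed smoke from 3R4F research cigarettes (CS) for 10 months and 4 breathed room air (RA). The Cre recombinase is driven by the Sftpc promoter, which is active in alveolar type II (AT2) cells, so fibroblasts were not its target. Leukocytes were separated by CD45 and mixed back with an enriched CD45-negative fraction before loading, so shares of cells are not those of the intact lung. The labels give 2 male and 2 female mice in each group, and each of 4 sequencing lanes held 1 CS and 1 RA mouse.

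Airway-near fibroblasts lie under the airway epithelium beside smooth muscle and exchange signals with both. Hhip encodes a protein that binds hedgehog ligands and keeps them from their receptor, and the locus is known for its link to lung function and chronic obstructive pulmonary disease. Aspn encodes asporin, a small leucine-rich proteoglycan that binds collagen and members of the TGF-beta family. Lgr6 and Lgr5 encode receptors for R-spondins, which strengthen Wnt signaling.

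CS mice C2, C5, D2 and D5 gave 13, 44, 33 and 23 peribronchial fibroblasts, and RA mice F1, F3, M1 and M3 gave 64, 35, 31 and 9. Of these cells 113 came from CS and 139 from RA mice. The medians by mouse of unique molecular identifiers (UMIs) per cell ran from 3887 to 6099 in CS and from 3562 to 5619 in RA. A level is the mean over a mouse's cells of transcripts per 10000, and n counts mice. Mouse M3, with 9 cells, fell under the minimum of 10 cells and was left out of the tests of single genes, which compare 4 CS with 3 RA mice, and its value is printed beside the others. Sex-linked transcripts went against the labels in CS mice. Xist was present in C2 and C5, labelled male, at 10.9 and 11.5, while the Y-linked Ddx3y was at 1.97 in D2 and 2.28 in D5, which are labelled female. In the RA mice both transcripts followed the labels. In 1 library, F1, markers of epithelial cells summed to 13.7 per 10000 over 12 genes, against 0.401 to 3.39 in the other 7. A single F1 cell with 123 Sftpc transcripts per 10000 carried much of the F1 mean of this gene, which was 2.43 with that cell and 0.516 without it. The F1 mean of Scgb1a1 was 6.14, and it remained at 3.99 without the cell highest in Scgb1a1. Endothelial markers summed to 1.41 in C2 and 1.09 in M3, the libraries with the fewest cells, and to between 7.99 and 11.8 in the other 6.

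Over all mice Hhip, the first marker, was found in 98.0% of the cells, Aspn in 71.8% and Lgr6 in 46.8%. In B cells, which should lack them, the shares were 0.257%, 0.214% and 0.386%, at a median depth of 4055 UMIs against 4274 in peribronchial fibroblasts. All 3 markers were found in 100 cells (39.7%), 2 in 98 cells, 1 in 50 cells and none in 4 cells. Hhip lies on chromosome 8 of GRCm38 from 79965851 to 80058006, Aspn on chromosome 13 from 49544443 to 49567565, and Lgr6 on chromosome 1 from 134983301 to 135105276. The markers differed in how far they set these cells apart. Hhip averaged 45.1 transcripts per 10000 over the cells, 52.4 times the level in adventitial fibroblasts, the next type, and Aspn averaged 9.27, which was 6.22 times the level in smooth muscle cells. Of all Hhip transcripts in the data, 73.0% lay in these cells, which made up 0.629% of all cells, and of all Aspn transcripts 56.2% did. Lgr6 was higher in basal cells of the airway epithelium, at 4.85 ± 1.37 (SD, n = 8 mice), than in peribronchial fibroblasts, at 2.78 ± 1.09 (SD, n = 8). Of the unscaled Lgr6 transcripts goblet cells held 59.7% and peribronchial fibroblasts 5.58%, with 509 goblet cells at a median of 35093 UMIs. Per 10000 transcripts goblet cells were lower, at 1.39 ± 0.547 (SD, n = 8). Smooth muscle cells were at 1.13 ± 0.683 (SD, n = 8), with Lgr6 in 36.2% of them. With basal, goblet and smooth muscle cells holding it, Lgr6 alone did not mark peribronchial fibroblasts. Hhip in AT2 cells, at 0.0165 ± 0.0292 (SD, n = 8), did not exceed the 0.0130 ± 0.0230 of B cells by more than its spread.

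The genes that led in these cells are described here without a test, since the annotation was made from the same cells. Of 1876 genes at 1 or more transcripts per 10000 and in at least 25% of the cells, 139 were highest in peribronchial fibroblasts among 30 other types with at least 50 cells, and 31 exceeded the next type by 2 times or more. After Hhip the highest ratios to the next type were those of Lgr5 (38.1), Kctd16 (30.4), the sodium-calcium exchanger Slc8a3 (28.9), the cytochrome P450 Cyp2e1 (28.8), the collagen prolyl hydroxylase subunit P4ha3 (16.5) and the cadherin Cdh4 (13.8). Lgr5, on chromosome 10 from 115450311 to 115587780, averaged 4.65, and 59.5% of its transcripts in the data lay in these 252 cells. Cyp2e1, which oxidizes ethanol and small solvents, had 66.0% of its transcripts here. Secreted proteins also led. Igfbp3, which binds insulin-like growth factors, averaged 17.6, which was 6.10 times the level in alveolar fibroblasts. Enpp2, which encodes autotaxin, the enzyme that makes lysophosphatidic acid, averaged 23.0, or 5.87 times the level in pericytes. Lum and Wnt5a exceeded the next type by 3.36 and 3.30 times. More of all Igfbp3 transcripts in the data lay in alveolar fibroblasts, 51.7% against 25.6% in peribronchial fibroblasts. Ciliated cells held 41.3% of those of Enpp2, against 14.1%, and adventitial fibroblasts 73.6% of those of Lum, against 23.6%. Also among the 20 with the highest ratios were 6530403H02Rik, Tdo2, 6330403K07Rik, Zfp385b, Fhod3, Pde10a and Pde1a, at between 2.98 and 6.02 times the next type.

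**Figure D1:**
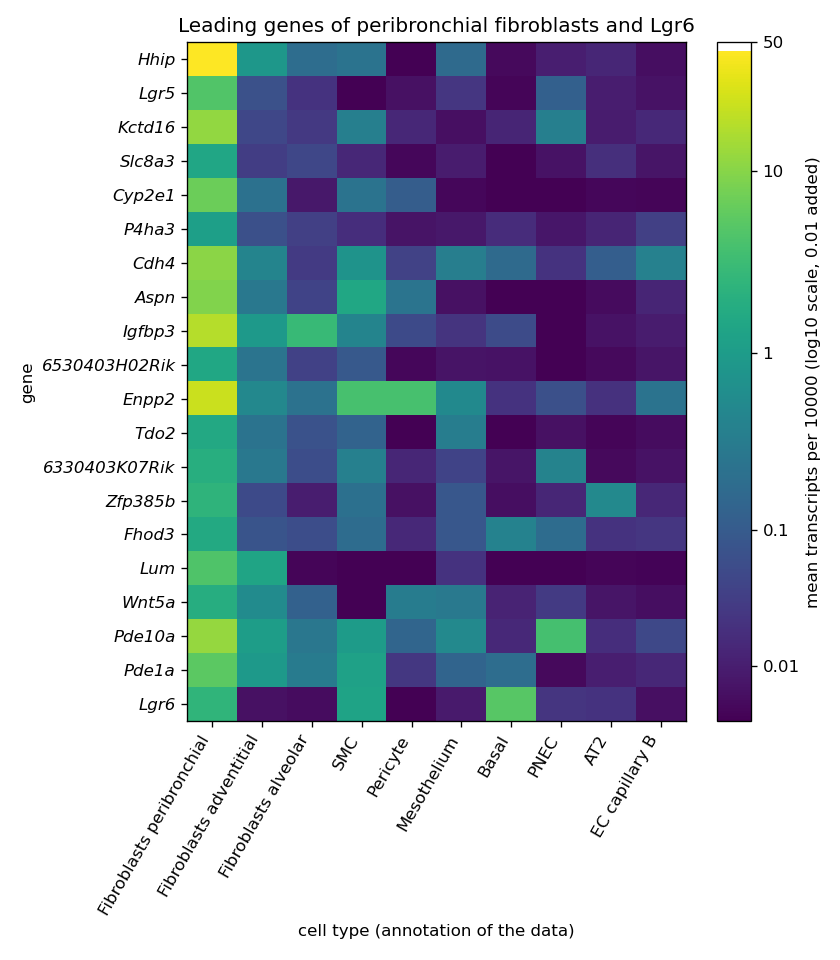
Mean transcripts per 10000 over the cells of 10 cell types (columns) for 19 of the 20 leading genes and Lgr6 (rows), with the colour on a log10 scale after 0.01 was added. The first column is the brightest in each row above the last, and in the last row basal cells, at 5.07, exceed peribronchial fibroblasts, at 2.46.

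Each of 11 alveolar and 13 adventitial fibroblast markers was at a lower level in peribronchial fibroblasts than in the cells it marks, as a description without a test. Pdgfra, the platelet-derived growth factor receptor of most lung fibroblasts, was at 0.113 ± 0.170 (SD, n = 8 mice), against 9.69 ± 1.49 in alveolar and 3.58 ± 0.799 in adventitial fibroblasts. It was found in 3.57% of the cells. Itga8 and Npnt, an integrin subunit and its ligand, were at 0.102 and 0.156, against 12 and 14.5 in alveolar fibroblasts. Pi16, an adventitial marker, was at 0.0127 against 5.77 in adventitial fibroblasts. Other adventitial markers were plainly present. Over the cells Gsn, which encodes gelsolin, averaged 27.9 and was found in 95.2% of them, the proteoglycan gene Dcn averaged 10.1 (55.2%), Mfap5 2.9 (61.9%) and Col14a1 2.54 (52.8%), against 262, 76.3, 7.99 and 4.33 in adventitial fibroblasts. The 13 adventitial markers together summed to 46.2, against 427 in adventitial and 139 in alveolar fibroblasts.

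Of 20 contractile genes, 15 lay above both other fibroblast types and below smooth muscle cells, and 5 did not (Mylk, Smtn, Cald1, Synm and Flna). Those 5 were lower than in alveolar fibroblasts, as with Mylk, the myosin light chain kinase, at 5.24 against 10.1, and Cald1, caldesmon, at 3.47 against 5.35. Acta2, smooth muscle actin, was at 7.0 ± 3.46 (SD, n = 8), against 127 ± 39.7 in smooth muscle cells, 1.06 ± 0.380 in adventitial and 0.182 ± 0.107 in alveolar fibroblasts. Tagln was at 9.23 ± 3.71 against 74.3 ± 25.2 in smooth muscle cells, and Myh11, smooth muscle myosin, at 1.63 ± 1.07 against 30.2 ± 9.70. Mustn1, a small nuclear protein of the musculoskeletal system, was nearer to smooth muscle, at 11.9 ± 3.37 against 16.2 ± 4.23, with 0.510 ± 0.0731 in adventitial fibroblasts. These transcripts were unevenly spread over cells. Among the 25 cells with the most Acta2, a range and not a type, Acta2 averaged 43.0, against 3.42 in the other 227 cells. Cnn1, calponin, was found in 6 of the 25 cells and in 0.441% of the others. Hhip was found in 22 of the 25 cells and in 99.1% of the others, at a mean of 37.4 against 46.0. Enpp2 averaged 16.0 against 23.7, Lgr5 2.43 against 4.90 and Lgr6 1.96 against 2.51. Aspn went the other way and averaged 14.2 against 8.73. The 25 cells came from 7 of the 8 mice, with 8 from C5 and 6 from F1. The R-spondin receptors overlapped in part, with Lgr5 and Lgr6 together in 74 cells, Lgr5 without Lgr6 in 69, Lgr6 without Lgr5 in 44 and neither in 65, at median depths between 3800 and 4454 UMIs.

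Peribronchial fibroblasts made up 6.22%, 5.20%, 7.22% and 3.91% of stromal cells in C2, C5, D2 and D5, and 5.10%, 4.17%, 4.12% and 3.27% in F1, F3, M1 and M3. The groups overlapped. The mean was 5.64% ± 1.42 in CS (SD, n = 4) and 4.17% ± 0.746 in RA (SD, n = 4), with p = 0.171 in a two-sided exact permutation test, in which 4 against 4 mice allow no p under 0.0286. As a share of all cells outside the immune types the difference had the opposite sign, at -0.0782 percentage points (exact permutation p = 0.657). No change in the share was detectable with these numbers of cells. The median UMIs per cell averaged 4706 ± 967 in the CS group (SD, n = 4) and 4247 ± 811 in the 3 tested RA mice (SD, n = 3), with an exact permutation p of 0.629, and M3 was at 5619.

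**Figure D2:**
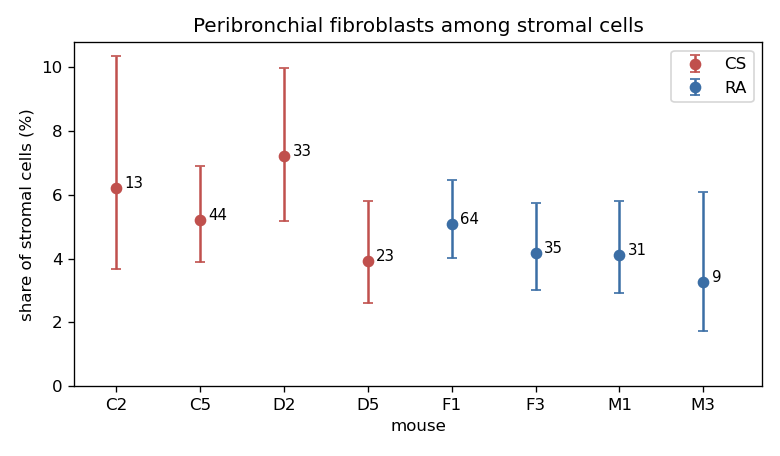
Share of peribronchial fibroblasts among stromal cells (%, vertical axis) in each of the 8 mice (horizontal axis), with 95% Wilson intervals, which cover counting error only, and the number of cells printed beside each point. The interval of each CS mouse overlaps that of each RA mouse.

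To ask what smoke changed within these cells, 7137 genes were tested, those seen in 10% or more of CS or of RA cells, with limma on log2 of the level plus 1. No gene passed a Benjamini-Hochberg adjusted p of 0.05. An unadjusted p under 0.05 was reached by 589 genes (8.25%), 331 higher in CS (4.64%) and 258 lower (3.61%), and the median difference over all genes was 0.01 on the log2 scale. The log2 difference was above 0 in 51.3% of all genes, the share to set beside counts of list members by direction. Of the 589, 204 passed the filter on cells only through the group in which they were higher, and such a gene had to differ between the groups in its share of cells. Groups did not overlap over the 7 tested mice in 4.81% of genes (higher in CS) and 4.43% (lower), and over all 8 mice in 5.55%, of which 3.07% were higher and 2.48% lower. A rank-sum test over single cells (Wilcoxon, Bonferroni correction), in which cells of the same mouse count as independent, passed 25 of 7189 genes (0.348%), with 12 of them higher. The genes below are therefore described by their values, and none is called changed. The differences are those on the log2 scale after 1 was added, which understates the ratio of low genes.

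The 3 markers were each higher in CS on average and each reached an unadjusted limma p under 0.05 (4.64% of all genes were higher at that p). In exact two-sided permutation tests over the 7 tested mice, p was 0.114 for Hhip, 0.0571 for Aspn and 0.229 for Lgr6. With 4 against 3 mice no p under 0.0571 is possible. Hhip was at 82.2, 55.7, 56.3 and 48.4 in C2, C5, D2 and D5 and at 23.7, 36.5, 54.3 and 44.2 in F1, F3, M1 and M3. The groups overlapped through M1 and D5. The log2 difference was 0.70 (SE 0.239, limma adjusted p = 0.551), from 0.41 to 0.99 with 1 mouse left out at a time, and in 3 of 3 lanes the higher value was that of the CS mouse. Aspn was at 16.9, 10.8, 11.6 and 8.23 in CS and at 7.68, 6.73, 6.95 and 14.3 in RA mice. The CS values lay above those of the 3 RA mice tested, and M3 lay among them. The log2 difference was 0.63 (SE 0.239, limma adjusted p = 0.575). Lgr6 was at 4.80, 2.96, 2.76 and 2.79 in CS and at 1.27, 3.38, 1.53 and 2.76 in RA mice, a log2 difference of 0.54 (SE 0.248) with overlapping groups and an adjusted limma p of 0.592. Without F1, the library with the most epithelial transcripts, the log2 differences of Hhip, Aspn and Lgr6 were 0.41, 0.67 and 0.35.

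Of the 20 leading genes 16 had a higher and 4 a lower mean in CS, and 8 and 2 of them reached an unadjusted p under 0.05 (4.64% and 3.61% of all genes), with a median log2 difference of 0.43 against 0.01 over all genes. Enpp2, on chromosome 15 from 54838901 to 54952892, was at 30.4, 24.8, 26.4 and 27.5 in CS and at 20.4, 17.9, 21.1 and 22.9 in RA mice. Every CS mouse lay above every RA mouse, M3 included, as in 3.07% of all genes tested. The log2 difference was 0.44 (SE 0.194, limma adjusted p = 0.587). Pde10a, a phosphodiesterase that degrades cyclic AMP and cyclic GMP and lies on chromosome 17 from 8525372 to 8986648, went the other way. It was at 5.13, 5.92, 7.49 and 9.28 in CS and at 16.3, 13.1, 15.6 and 21.5 in RA mice. Every CS mouse lay below every RA mouse, as in 2.48% of all genes. The log2 difference was -1.03 (SE 0.231, limma adjusted p = 0.432), and the ratio of the means was 0.464. Lgr5 was at 10.1, 5.49, 4.60 and 5.93 in CS and at 2.30, 2.24, 7.06 and 7.41 in RA mice. M1 and M3 lay above 3 of the 4 CS mice, so the groups overlapped. The log2 difference of 0.72 (SE 0.305) had an adjusted limma p of 0.578, and it ran from 0.49 to 1.15 with 1 mouse left out, the highest without M1. Wnt5a was at 4.95, 2.27, 2.15 and 1.83 in CS and between 0.829 and 2.24 in RA mice, and C2, with 13 cells, was the highest. Kctd16, at 12 ± 3.65 (SD, n = 4) against 11.5 ± 2.58 (SD, n = 3), and Cdh4, at 10.4 ± 2.11 against 9.51 ± 1.96, differed by less than their spread.

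**Figure D3:**
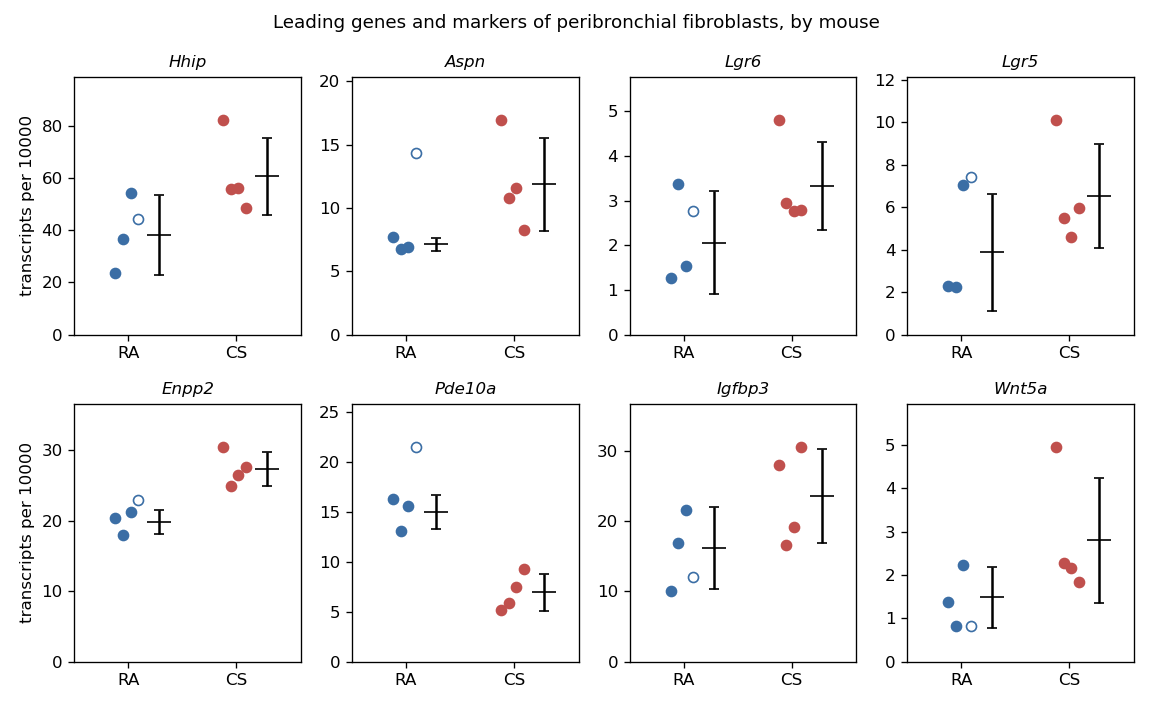
Transcripts per 10000 (vertical axis, from 0) of 8 markers and leading genes in each mouse, RA in blue and CS in red, with the mean and SD of the 4 CS and 3 RA mice tested beside the points. The open circle is M3 (9 cells), which was not tested. Enpp2 and Pde10a separate all CS from all RA mice, and Hhip, Aspn, Lgr6 and Lgr5 do not.

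Further signals of the fibroblast were read from lists of pathway genes. In the hedgehog pathway, where Hhip acts as an inhibitor at the cell surface, 11 of 20 genes were tested and Hhip alone had an unadjusted p under 0.05. The log2 difference was above 0 in all 11, against 51.3% of all genes, with a median of 0.15. Besides Hhip, 1 of the 11 passed the filter only through the group in which it was higher. Ptch1, the receptor and a target of the pathway, was between 0.411 and 1.33 in CS and between 0.457 and 1.41 in RA mice, a log2 difference of 0.03. Gli1, a target in most tissues, was at 0.225 ± 0.0727 over the mice (SD, n = 8) and was found in 8.33% of the cells, too few for the test. Of 23 Wnt and R-spondin genes tested, Wnt5a, its receptor Ror2, Lgr5 and Lgr6 were higher in CS at an unadjusted p under 0.05 (4.64% of all genes) and none was lower, with a median log2 difference of 0.22. Of 34 TGF-beta and BMP genes, 5 were higher and 4 lower at that p, against 4.64% and 3.61% of all genes, and 1 of the 4, Fstl3, passed the filter only through RA. Bmp5, a BMP ligand, was at 14.2, 8.39, 9.47 and 7.91 in CS and at 3.43, 6.14, 7.17 and 6.30 in RA mice. All CS values lay above all RA values, with a log2 difference of 0.75 (SE 0.259) and an adjusted limma p of 0.551, and it was 0.49 without F1. Ltbp1, which holds latent TGF-beta in the matrix, was between 2.56 and 3.74 in CS and between 0.584 and 2.04 in RA mice, and Tgfb2 between 1.18 and 1.53 against 0.459 to 0.982. Id3, a BMP target, was lower on average, at 6.87 ± 3.01 (SD, n = 4) against 13.0 ± 3.39 (SD, n = 3), with overlapping groups. The chemokine Cxcl12 was at 1.51, 0.721, 0.769 and 2.12 in CS and at 0.485, 0.415, 0.424 and 0.680 in RA mice, without overlap (log2 difference 0.62, SE 0.208, limma adjusted p = 0.551). Among 17 genes of FGF, PDGF and IGF signaling 2 were higher and 2 lower at an unadjusted p under 0.05, beside the same shares of all genes. Igfbp4 was at 1.54, 1.84, 2.4 and 2.05 in CS and at 7.76, 1.92, 8.87 and 6.04 in RA mice, with F3 alone of the RA mice in the range of CS. Its log2 difference was -1.10 (SE 0.315, limma adjusted p = 0.542). The exact permutation p over the 7 tested mice was 0.171. Without F3 the log2 difference was -1.66, with an adjusted limma p of 0.0137. That fit compared 4 CS with 2 RA mice and left out the RA mouse in the range of CS, so no call is drawn from it.

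Matrix genes were read by class, and no test compared the classes. Of 17 collagens tested 15 had a higher mean in CS, with a median log2 difference of 0.21, and Col1a2, Col6a3 and Col27a1 had an unadjusted p under 0.05 (4.64% of all genes were higher at that p). Col6a3 was at 4.65, 4.21, 3.46 and 2.17 in CS and at 1.5, 2.25, 1.75 and 1.74 in RA mice. F3 lay above D5, and the groups overlapped there. Col1a1, a main fibrillar collagen, was at 3.41 ± 0.956 (SD, n = 4) against 3.09 ± 0.879 (SD, n = 3). Of 7 small leucine-rich proteoglycans, which coat collagen fibrils, Aspn, Lum and Ecm2 were higher at an unadjusted p under 0.05 (4.64% of all genes). The median log2 difference of the 7 was that of the marker Aspn itself, 0.63. Lum was between 3.69 and 7.72 in CS mice, at 1.06 in F1 and between 5.26 and 5.79 in the other RA mice. Its log2 difference of 0.72 ran from 0.185 to 0.997 with 1 mouse left out. Ecm2 was at 2.50, 1.87, 1.81 and 2.56 in CS and at 0.421, 0.875, 1.33 and 1.28 in RA mice, without overlap (log2 difference 0.78, SE 0.208, limma adjusted p = 0.542). Serpinh1, the chaperone of procollagen and the only one of 17 collagen processing genes at that p (3.61% of all genes were lower), was at 3.23, 2.73, 3.01 and 2.84 against 5.58, 3.83, 5.15 and 5.72. No elastic fibre gene of 11 tested had an unadjusted p under 0.05, and elastin (Eln) was at 4.57 ± 3.02 (SD, n = 4) in CS and 5.94 ± 5.63 (SD, n = 3) in RA mice. Of 15 contractile genes tested Acta2, Lmod1, Synpo2 and Flna were higher at an unadjusted p under 0.05, against 4.64% of all genes, and none was lower. Acta2 was at 7.46, 14.6, 5.77 and 8.88 in CS and at 5.56, 5.44, 4.40 and 3.91 in RA mice, with D2 just above F1 and no overlap (log2 difference 0.67, SE 0.261, limma adjusted p = 0.575). Without C5 it was 0.44. The summed level of the 20 contractile genes ran from 47.1 to 76.5 in CS and from 22.5 to 52.2 in RA mice, and the part of the Acta2-rich cells in this was not tested.

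Genes were ranked by p among those whose groups of tested mice did not overlap, so that lack of overlap was a condition of their choice. Of these, the smallest p among genes higher in CS belonged to S100a6, Dbp, Rnf150, Lhfpl2, Slc6a6, Tef, Ecm2 and Wdr26. Among genes lower in CS it belonged to Cebpd, Penk, Pde10a, Npr3, Cinp, Fxyd6, Manf and Fos. The adjusted limma p of these genes was 0.432 to 0.542. Cinp, in 0.885% of CS and 10.8% of RA cells, was tested only because of its share in RA. S100a6, a calcium-binding protein, was at 2.80, 3.95, 3.88 and 6.01 in CS and at 1.58, 1.65, 1.22 and 2.0 in RA mice. All CS values lay above all RA values, with a log2 difference of 1.03 (SE 0.226, limma adjusted p = 0.432). Slc6a6, the taurine transporter, was between 2.09 and 2.75 in CS and between 1.04 and 1.14 in RA mice. Cebpd, a transcription factor induced by inflammation and corticosteroids, was at 4.77, 6.39, 8.94 and 6.00 in CS and at 14.1, 15.7, 16.2 and 5.40 in RA mice. M3, which was not tested, lay among the CS mice, and the log2 difference over the others was -1.14 (SE 0.229, limma adjusted p = 0.432). Penk, which encodes proenkephalin, was at 0.489, 0.781, 1.08 and 0.570 in CS and at 3.03, 1.52, 2.72 and 1.70 in RA mice, without overlap. Npr3, the clearance receptor of natriuretic peptides, was between 0 and 0.393 in CS and between 0.722 and 1.44 in RA mice. Lhfpl2, Fxyd6 and Manf also separated all 8 mice, whereas for Rnf150, Wdr26, Dbp and Tef the RA mouse M3 lay within or above the range of CS. Nupr1, a stress-response gene named by the study, was at 4.06 ± 1.51 (SD, n = 4) in CS and 4.27 ± 1.07 (SD, n = 3) in RA mice, a difference smaller than the spread.

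Clock output genes, which are driven by the CLOCK and BMAL1 proteins at E-boxes, had a higher mean in CS in 9 of 11 tested and a lower one in 2. Of the 11, 7 had an unadjusted p under 0.05 (Dbp, Tef, Hlf, Per2, Nr1d1, Nr1d2 and Bhlhe41), against 4.64% of all genes, and the median log2 difference was 0.49. Over all 8 mice the groups did not overlap in 2 of the 11, Nr1d2 and Bhlhe41, each higher in CS, against 3.07% of all genes. The list was chosen with earlier results of these data known, so these counts are a description and no test. With 1 mouse left out the log2 difference of Nr1d1 ran from 0.18 to 0.79. Dbp was at 4.01, 2.41, 2.58 and 2.81 in CS and at 0.289, 1.29, 1.36 and 5.11 in RA mice. M3 had the highest value of all 8 mice, and the log2 difference of 1.03 (SE 0.234, limma adjusted p = 0.432) does not include it. Nr1d2, which encodes the nuclear receptor REV-ERB beta, was at 2.60, 2.29, 2.08 and 2.20 in CS and at 0.726, 1.2, 1.64 and 0.486 in RA mice, without overlap. Of 5 genes of the opposite phase, 3 (Arntl, Cry1 and Npas2) passed the filter only through RA, where they were higher, so no direction is read from them. Arntl, which encodes BMAL1, was at 0, 0.146, 0 and 0.0879 in CS and at 0.788, 0.0504, 0.299 and 0 in RA mice. Promoters of 10 clock output genes, 250 bases before to 50 after the start (RefSeq, GRCm38.p6), were searched for the E-box CACGTG, which reads the same on both strands. Counted by gene it was in promoters of Bhlhe41, Ciart, Per1 and Tef, and counted by promoter in 7.15% of all 32851, so these figures are not alike. The windows of Bhlhe41 (chr6:145865556-145865585, minus strand) and of the first Tef promoter (chr15:81802534-81802563, plus strand) show it in capitals.
Bhlhe41: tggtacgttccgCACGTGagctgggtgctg
Tef: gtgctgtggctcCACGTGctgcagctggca
Bhlhe41 itself was at 0.957, 0.535, 0.462 and 0.521 in CS and at 0.0834, 0.173, 0.174 and 0.361 in RA mice, and all CS values lay above all RA values, but it passed the filter only through CS (21.2% of cells, against 4.62% in RA). Tef was at 2.78, 1.73, 1.76 and 1.18 against 0.287, 0.619, 0.930 and 1.92, and M3 lay within the range of CS.

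Among chaperones, which fold new or damaged proteins, 24 of 33 tested had a lower and 9 a higher mean in CS, with a median log2 difference of -0.14. Of the 33, 9 had an unadjusted p under 0.05 in that direction (Hsp90ab1, Hspb1, Hspb8, Hspa5, Calr, Pdia3, Pdia6, Manf and Dnajb11), against 3.61% of all genes, and none in the other. The filter let in 3 other genes of the 33 only through the group in which they were higher, so no direction is read from those 3. The groups did not overlap over all 8 mice in 9 chaperones (Hspb1, Hspb8, Fkbp4, Hspa5, Hsp90b1, Calr, Pdia3, Pdia6 and Manf), each lower in CS, against 2.48% of all genes. Most of these work in the endoplasmic reticulum, where such genes are induced through the ER stress response element. Its letters, CCAAT, any 9 bases and CCACG, were searched on both strands of the promoters, and 0.119% of all 32851 promoters held them. They were found in 6 of the 28 chaperone genes with a promoter, namely Hspa5, Calr, Pdia6, Hsp90b1, Canx and Creld2. This is a count of genes and the 0.119% a share of promoters, so the figures are not alike. The windows of the 3 with an unadjusted p under 0.05 are given with the element in capitals, Hspa5 at chr2:34772020-34772048 (plus strand), Calr at chr8:84847070-84847098 (minus strand), where it lies reversed, and Pdia6 at chr12:17266486-17266514 (plus strand).
Hspa5: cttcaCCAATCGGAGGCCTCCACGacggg
Calr: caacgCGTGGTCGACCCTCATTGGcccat
Pdia6: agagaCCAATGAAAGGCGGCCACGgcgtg
Hspa5, the ER chaperone BiP, was at 5.12, 8.82, 8.29 and 6.99 in CS and at 14.2, 9.74, 10.7 and 10.9 in RA mice, without overlap. Its log2 difference was -0.60 (SE 0.234, limma adjusted p = 0.575). Calr, calreticulin, was at 3.76, 3.77, 3.11 and 2.16 in CS and at 9.49, 6.02, 5.13 and 6.48 in RA mice, without overlap and with a log2 difference of -0.89 (SE 0.241, limma adjusted p = 0.542). Pdia6, a protein disulfide isomerase, was at 1.56, 1.2, 0.929 and 1.26 in CS and at 3.48, 2.15, 2.36 and 3.36 in RA mice, again without overlap. Canx, which also holds the element, was between 1.64 and 2.29 in CS and between 1.65 and 2.24 in RA mice, a log2 difference of -0.02, so the letters did not go with a difference in each gene.

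**Figure D4:**
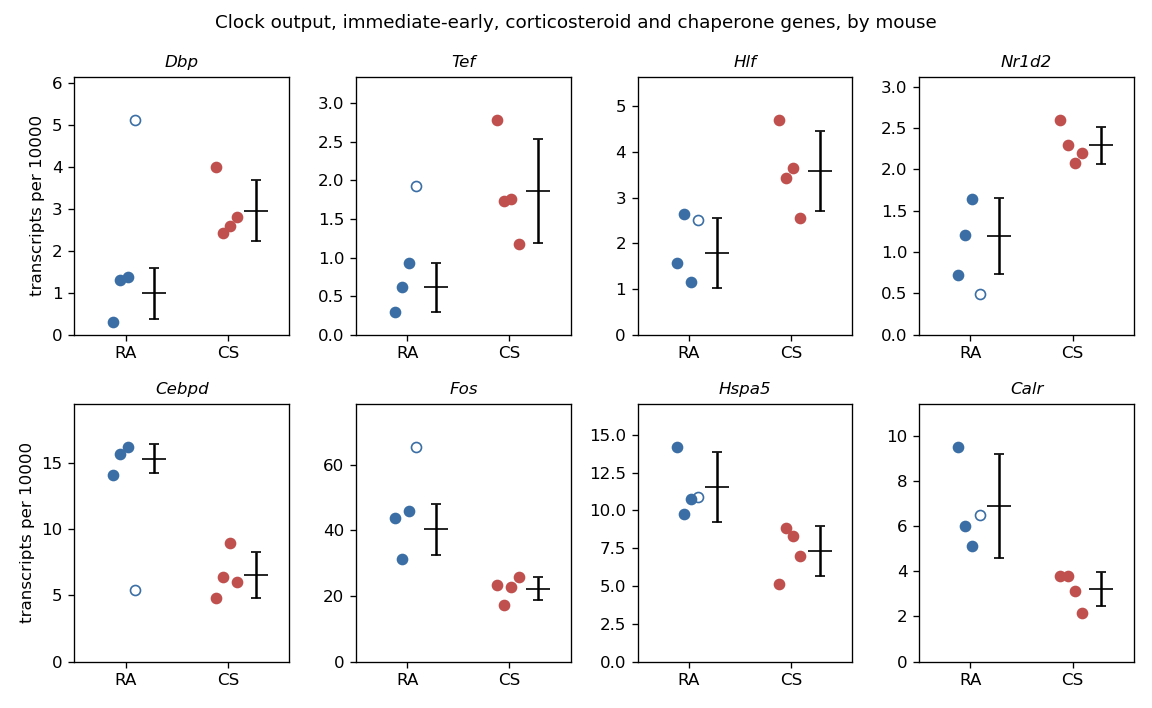
Transcripts per 10000 (vertical axis, from 0) of 4 clock output genes (Dbp, Tef, Hlf, Nr1d2), Cebpd, Fos and 2 chaperones (Hspa5, Calr) in each mouse, RA in blue and CS in red, with the mean and SD of the mice tested. The open circle is M3, which lies with the RA mice in Fos, Hspa5, Calr and Nr1d2 but within or beyond the CS values in Dbp, Tef and Cebpd.

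Immediate-early genes, which respond within minutes to signals and to tissue handling, had a lower mean in CS in 21 of 30 tested and a higher one in 9. Of the 30, 7 were lower at an unadjusted p under 0.05 (Fos, Junb, Jund, Atf3, Btg2, Socs3 and Gadd45g) and Egr3 was higher, against 3.61% and 4.64% of all genes, and the median log2 difference was -0.25. The filter let in 1 other gene of the 30 only through the group in which that gene was higher. Fos was at 23.2, 17.4, 22.8 and 25.6 in CS and at 43.8, 31.4, 45.8 and 65.4 in RA mice. All CS values lay below all RA values, with a log2 difference of -0.82 (SE 0.208, limma adjusted p = 0.516). Junb was at 29.9, 40.8, 36.8 and 42.5 in CS and at 49.7, 49.5, 53.2 and 42.5 in RA mice, so D5 and M3 nearly met. Egr1 differed by less than its spread, at 37.7 ± 7.23 (SD, n = 4) against 34.2 ± 10.6 (SD, n = 3). Of 14 corticosteroid response genes Zbtb16, Cebpd, Cdkn1a and Angptl4 were lower at an unadjusted p under 0.05, against 3.61% of all genes, and none was higher. Here too 1 other gene of the 14 passed the filter only through the group in which it was higher. Over all 8 mice none of the 14 separated the groups, while 2.48% of all genes did so with lower values in CS. With 1 mouse left out the log2 difference of Cdkn1a ran from -1.02 to -0.34. Among 24 NRF2 and antioxidant genes Sod1 had a higher and Sod2 and Gsr a lower mean in CS at an unadjusted p under 0.05, against 4.64% and 3.61% of all genes, and Gsr passed the filter only through RA. The log2 difference was below 0 in 18 of the 24 and above 0 in 6, with a median of -0.18. None of the 3 aryl hydrocarbon receptor genes tested had an unadjusted p under 0.05. Among 20 mouse counterparts of genes at loci for lung function and chronic obstructive pulmonary disease, Hhip, Adgrg6 and Tgfb2 were higher at that p (4.64% of all genes) and none was lower.

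**Figure D5:**
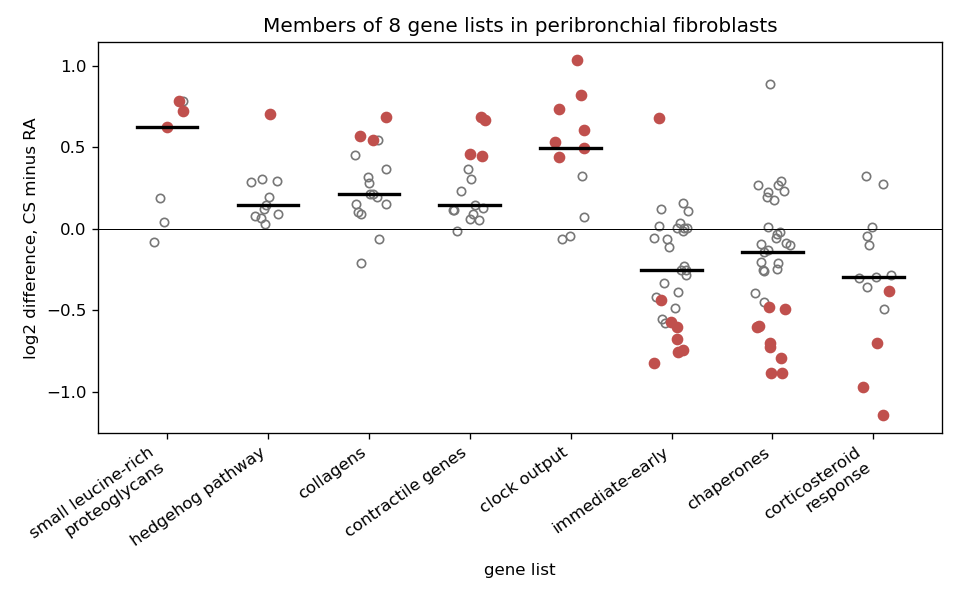
Log2 difference between CS and RA (vertical axis) for each tested member of 8 gene lists (horizontal axis), with filled red points for an unadjusted limma p under 0.05, open points for the others and a bar at the median. No point passed an adjusted p of 0.05, and the medians run from -0.30 in the corticosteroid response list to 0.63 in the small leucine-rich proteoglycans. The median of the proteoglycans is the value of Aspn.

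Whether the effect of smoke differed between peribronchial fibroblasts and their neighbours was tested directly, as the difference of the CS minus RA effects. No gene of 8777 passed an adjusted limma p of 0.05 against alveolar fibroblasts (499 unadjusted, 5.69%), none of 9591 against adventitial fibroblasts (540 unadjusted, 5.63%) and none of 9242 against smooth muscle cells (607 unadjusted, 6.57%). Against alveolar fibroblasts, adventitial fibroblasts and smooth muscle cells in that order, the unadjusted p of the difference was 0.000163, 0.0103 and 0.0933 for S100a6 and 0.00468, 0.0458 and 0.00300 for Pde10a. In the same order it was 0.143, 0.00339 and 0.414 for Hspa5, 0.870, 0.276 and 0.179 for Calr, 0.438, 0.821 and 0.0931 for Pdia6, and 0.635, 0.800 and 0.284 for Dbp. Nothing in the response to smoke was therefore shown to be particular to peribronchial fibroblasts.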

How the data were processed

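Reads of lung cells were aligned by the authors with STAR 2.7.3a (STARsolo) to GRCm38.p6, per the labels, and free RNA was removed with SoupX. The matrix deposited by the authors holds estimated counts of UMIs per gene and cell, 1.28% of them whole within 1e-06, and its sums match the deposited totals of all 41106 cells. It was not scaled or log-transformed. Cell types and the mouse of each cell come from the deposited annotation, in which multiplets (1025 cells) and cell cycle (7 cells) are marked, so no doublet caller was run. Barcodes found in more than 1 library numbered 197, and 2 peribronchial fibroblasts carried one. Each cell was scaled to 10000 transcripts and averaged per mouse. Because the counts are not whole, no count model was fitted. Mice with at least 10 cells and genes in at least 10% of cells of either group were tested with limma 3.58.1 (R 4.3.3) on log2 of the level plus 1, CS against RA, with Benjamini-Hochberg adjustment at 0.05, and single measures with exact two-sided permutation tests. The limma step was tested on simulated data. Depth per mouse limits low genes, since 9 to 64 cells stand behind each value.

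The members and gene lists were chosen with earlier results of these data known. Genes named were the markers, the 20 genes with the highest ratio to the next type, the members with the highest level of each list, the 8 with the smallest p in each direction whose groups of tested mice did not overlap, and Nupr1 and Cxcl12. Other list members, promoter motifs and genes of smaller lists were named after their values were seen. Settings tried instead were the pseudocount, the gene filter, the minimum of cells, weights, sums of counts, labelled sex (which Xist and Ddx3y go against in the CS mice), lane, centring, a test over single cells and each mouse left out. All 8 mice weighted by cells was added after the data were seen. Lane is the only batch the labels give. Tested mice of the same lane did not deviate together (r of their deviations from the group means over 7137 genes from -0.113 to -0.0214 in 3 lanes), so lane was not taken as a pairing. Promoters came from RefSeq, and gene positions from GENCODE M21, both on GRCm38. Of the leading genes, 1 is not reported here.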

Additional observations from a re-analysis of the deposited data

Results flagged for a closer look

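In groups of 4 CS mice, 5 of 107 values had 1 mouse far from the other 3, and chance gives about 1 in 20 groups, here 5.35. Mouse C2, with 13 cells, was the mouse in 3 of the 5. Lgr6 was at 4.80 in C2 and between 2.76 and 2.96 in the other CS mice. Wnt5a was at 4.95 in C2 and between 1.83 and 2.27 in the others. Bhlhe41 was at 0.957 in C2 and between 0.462 and 0.535 in the others. In mouse D2, Cinp was at 0.0589 and listed at 0 in the others, and it was found in 0.885% of CS cells. With the other 3 at 0 any value above 0 is flagged, so the rate of 1 in 20 does not apply to it. In mouse D5, 6330403K07Rik was at 1.10 and between 2.34 and 2.56 in the others. Groups of 3 RA mice were not examined in this way. No difference of the effect of smoke between cell types passed its test.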

How the results depend on the processing

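The 88 genes followed for an unadjusted p under 0.05 kept their direction in all of 1827 values under up to 21 other settings, which their choice by that p favours, and their side of the threshold in 1826, the exception being Igfbp4, at -1.66 without F3. Of 8 genes described with no difference, 7 changed sign in 1 or more settings, 29 of 168 values in all. With at least 20 cells per mouse Nupr1 was at 0.10 and the log2 difference of Kctd16 at -0.0837. Kctd16 was also at -0.15 with array weights, -0.19 with weights by cells, -0.0371 with the replicate block and -0.10 with all 8 mice weighted by cells. With all 8 mice Cdh4 was at -0.10 and Canx at 0.0247, and Canx was at 0.0255 with summed counts and 0.0340 with the replicate block. With 1 mouse left out Nupr1 ran from -0.24 to 0.10, Kctd16 from -0.11 to 0.26, Cdh4 from -0.00621 to 0.26, Ptch1 from -0.12 to 0.24, Col1a1 from -0.0713 to 0.26, Eln from -0.55 to 0.47 and Canx from -0.0707 to 0.0340. The count of genes past an adjusted limma p of 0.05 was 0 in every limma setting but those without 1 mouse, where it ran from 0 to 2. Without F3, with 4 CS against 2 RA mice, it was 2, Igfbp4 and Depdc5, both lower in CS. The test over single cells called 25. In peribronchial, alveolar and adventitial fibroblasts, at least 20 cells per mouse left out C2 alone. That setting and the fit without C2 are therefore the same fit, counted under both names. The difference from alveolar fibroblasts gave 1 gene in this fit, S100a6, and from 0 to 1 with 1 mouse left out. That from adventitial fibroblasts gave 1, Cxcl1, with genes in at least 25% of cells, and from 0 to 1 with 1 mouse left out (D2). That from smooth muscle cells ran from 0 to 1 (Depdc5 without F3). With at least 20 cells per mouse it held 2 CS against 1 RA mice, the lone RA mouse assumed to vary like the CS mice, and gave 0 genes (673 unadjusted). The labelled sex as a term gave 0 genes, but sex-linked transcripts go against those labels in the CS mice. The cause of these calls was not tested. A replicate block by lane gave 0 genes, and changed no call. The share differed by -0.0782 over cells outside the immune types, and from 0.946 to 2.05 over stromal cells with 1 mouse left out. UMIs per cell differed by between -5.76, without C2, and 906. With 13 to 64 cells per tested mouse, low genes are measured with large error.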

Other observations

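The transgene reporters were also read in these cells. The green reporter eGFP, which tamoxifen turns on in cells with Sftpc, was found in 66.3% of peribronchial fibroblasts, in 69.1% of alveolar fibroblasts, in 45.1% of adventitial fibroblasts, in 67.8% of smooth muscle cells, in 18% of B cells and in 99.6% of AT2 cells, the type the Cre targets. Its level per 10000 over the cells was 4.24 in peribronchial, 3.43 in alveolar and 1.18 in adventitial fibroblasts. It was 3.78 in smooth muscle cells, 0.438 in B cells and 72.3 in AT2 cells. Median depths in that order were 4274, 6535, 9418, 5805, 4055 and 11684 UMIs. The authors added both reporter sequences to the genome used for alignment, and which parts of the transgenes these cover is not given. Whether fibroblasts with eGFP transcripts had recombined was not tested. By mouse the level was 3.91, 5.78, 6.20 and 7.77 per 10000 in C2, C5, D2 and D5 and 1.6, 2.48, 5.52 and 2.08 in F1, F3, M1 and M3. The log2 difference was 0.80 (SE 0.283, limma adjusted p = 0.554), from 0.51 without F1 to 1.17 without M1. The red reporter tdTomato, which other cells carry, was found in 44.4% of the cells and in 19.2% of B cells, at 1.32 ± 0.821 in the CS group (SD, n = 4) and 1.95 ± 0.551 in the tested RA group (SD, n = 3).

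Of 25 interferon-stimulated genes, 14 were seen in enough cells for the test, with Ifitm3 found in 95.2% of the cells, Ifi27 in 63.1% and Irf1 in 59.9%. Ifit2 and Xaf1 alone had an unadjusted p under 0.05, but both passed the filter only through CS, where they were higher (10.6% and 15.0% of cells, against 3.08% of RA cells for each), so no direction is read from them. Xaf1 was at 0.492, 0.255, 0.311 and 0.428 in CS and at 0.0650, 0, 0.122 and 0 in RA mice. An unadjusted p under 0.05 was reached by 4.64% of all genes in the higher and 3.61% in the lower direction. Of 13 senescence and p53 genes, 12 had a lower mean in CS, with Cdkn1a and Btg2 at an unadjusted p under 0.05. The filter let in 1 other gene of the 13 only through the group in which that gene was higher. Over all genes the log2 difference was above 0 in 51.3%. None of the 13 separated the groups over all 8 mice. Among 20 cytokine, chemokine and complement genes, Ccl2 was at 0.149, 3.27, 1.42 and 7.46 in CS and at 0.722, 1.24, 0.0841 and 1.17 in RA mice, and these wide ranges overlapped. Ccl2 passed the filter only through CS. Of the other lists, collagen processing enzymes had 0 higher and 1 lower of 17 at an unadjusted p under 0.05, proteases and their inhibitors 2 higher (Timp3 and Reck) and 0 lower of 18, and 11 genes linked to airway-near and duct myofibroblasts 4 higher (Wnt5a, Mustn1, Enpp2 and Lgr5) and 0 lower. Marker lists of alveolar and adventitial fibroblasts had 0 of 3 and 0 of 7 at that p, pericyte markers 1 lower of 3 (Kcnj8), and endothelial, epithelial and immune markers 1 (Cldn5), 2 (Sftpa1 and Sftpb) and 1 (Lyz2) lower of 8, 5 and 2. Of these, Cldn5 and Sftpb passed the filter only through RA, where they were higher.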
